A study of Mus musculus with 3 samples.

Results

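Among 44717 cell barcodes of a mouse salivary gland organoid dataset, 3537 held fewer than 1500 unique molecular identifiers (UMIs, counted RNA molecules) of which at least 8% came from the 13 protein genes of the mitochondrial genome. These mt-rich barcodes were chosen by those counts alone, so their depth and their mitochondrial share are descriptions and were not tested. They are set against the 4744 mt-poor barcodes, which had fewer than 1500 UMIs and a mitochondrial share under 4%. The rule did not use how nuclear UMIs were divided among genes, and that division is what was compared. The organoids were grown in Matrigel from submandibular glands of 4 C57BL/6 mice aged 8 to 12 weeks, in a medium with Wnt3a, R-spondin1, EGF, FGF2, dexamethasone and Y27632. On day 5 they received a dose of 7 Gy as photons or as protons (beam plateau), or were left unirradiated, and all were collected on day 11, 6 days later. Cultures were pooled, dissociated with trypsin, sorted as cells that excluded propidium iodide, and sequenced as 1 droplet 3′ library for each of the photon, proton and control groups. Treatment and library therefore cannot be told apart, and differences between the libraries have no replicate check.

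Mitochondrial messengers are made and kept inside the organelle, whereas most nuclear messengers are exported to the cytoplasm. A barcode with few molecules and a large mitochondrial share is commonly treated as a damaged cell and removed before analysis. Long noncoding RNAs such as Malat1 and Neat1 stay in the nucleus, messengers of ribosomal proteins are among the most abundant in the cytoplasm, and unspliced transcripts of long genes are found mainly in the nucleus.

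The 3 libraries held 15926 photon, 14525 proton and 14266 control barcodes, with median depths of 2693, 2158 and 2638 UMIs, and no deposited barcode had fewer than 500 UMIs. Mt-rich barcodes made up 839 of the photon barcodes, a share of 5.27% (exact binomial 95% interval 4.93% to 5.63%). They made up 125 of the proton barcodes, a share of 0.861% (0.717% to 1.02%), and 2573 of the control barcodes, a share of 18.0% (17.4% to 18.7%). The control library thus supplied most of them and the proton library few, and these intervals cover counting error only. Of the shallow barcodes alone, 28.5% in the photon, 3.01% in the proton and 68.4% in the control library were mt-rich. The mt-poor class ran the other way, with 1218 photon, 3319 proton and 207 control barcodes, and a further 2572 shallow barcodes lay between 4% and 8%. Libraries shared between 55 and 61 barcode sequences pairwise, and 1 of these was mt-rich in both of its libraries. At a threshold of 6% the mt-rich shares were 8.46%, 2.10% and 23% in the photon, proton and control libraries, and at 10% they were 2.85%, 0.386% and 10.4%.

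**Figure D1:**
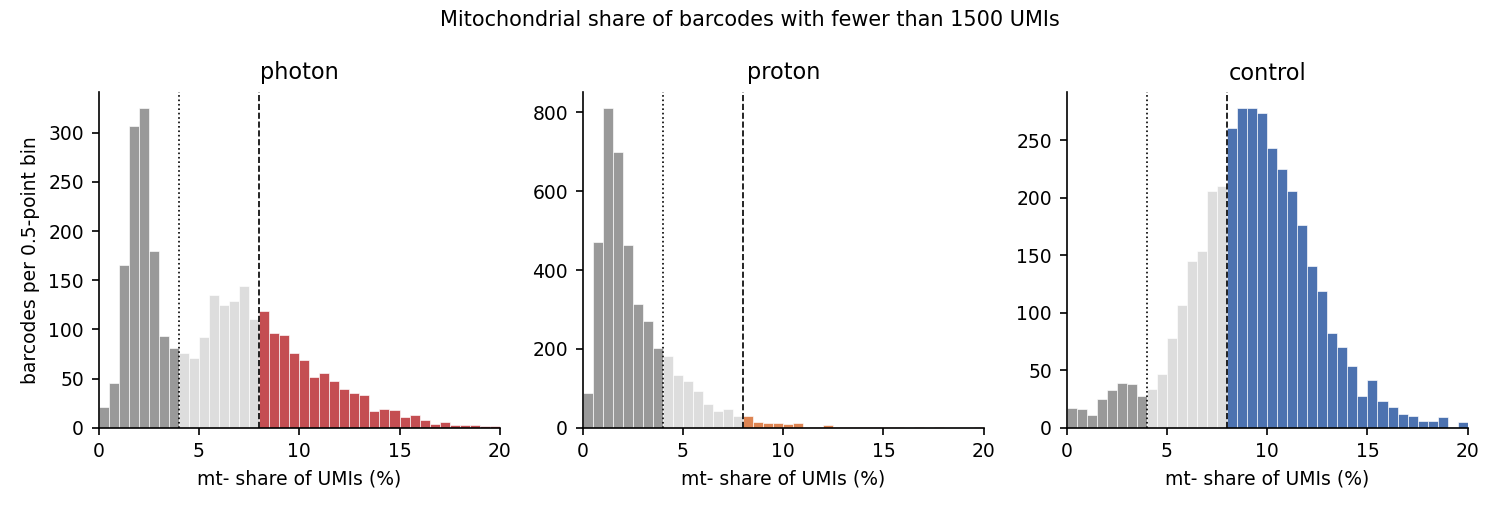
Number of shallow barcodes (fewer than 1500 UMIs) in bins of 0.5 percentage points of mitochondrial share, 1 panel per library with its own vertical scale; coloured bars are mt-rich, dark grey bars mt-poor, and 27 barcodes over 20% are not drawn. The photon library has a mode near 2% and a broad one between 5% and 10%, the proton library peaks below 2%, and the control library peaks between 8.5% and 9.5%.

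Mt-rich barcodes were shallower than mt-poor ones in every library. Their median depth was 709 UMIs in the photon, 783 in the proton and 823 in the control library, against 1292.5, 1123 and 1079 UMIs in mt-poor barcodes. Their median mitochondrial share was 10.3%, 9.65% and 10.4%, and the highest was 61.5%. They detected a median of 503, 540 and 571 genes, against 827, 733 and 696 in mt-poor barcodes. After each barcode was thinned to 300 nuclear UMIs, which left out 1 proton barcode, mt-rich barcodes detected a median of 252 genes in the photon, 262 in the proton and 250 in the control library, and mt-poor barcodes detected 249, 249 and 248, so the gap closed at equal depth. A filter of at least 500 genes and at most 20% mitochondrial UMIs would remove 1230 of the 3537 mt-rich barcodes (34.8%), of which 1220 fell short on genes and 27 exceeded the mitochondrial limit.

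The number of mitochondrial molecules per barcode is part of the rule and is given as a description. Mt-rich barcodes carried a mean of 84.6 mitochondrial UMIs in the photon, 94.7 in the proton and 93.8 in the control library. The deeper barcodes (1500 UMIs or more, under 8% mitochondrial) carried 72.5, 53.9 and 98.6, and mt-poor shallow barcodes carried 26.0, 19.9 and 24.8. Mt-rich barcodes held over 3 times as many mitochondrial molecules as mt-poor barcodes of their own library, more than deeper barcodes in the photon and proton libraries, and fewer than deeper barcodes in the control library.

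Every one of the 13 mitochondrial messengers was present. Mt-Co1, the catalytic subunit of complex IV, made up 25% of mitochondrial UMIs in photon, 25.2% in proton and 27.3% in control mt-rich barcodes, against 30.9%, 29.6% and 27.8% in mt-poor barcodes. Mt-Cytb, of complex III, made up 13.6%, 8.60% and 14.2% in mt-rich barcodes, against 10.9%, 7.43% and 13.2% in mt-poor ones, so the lower proton value stood in both classes. Mt-Nd6, the complex I subunit encoded on the opposite strand from the other 12, was the marker given for these barcodes. Of all UMIs it took 0.0349% in photon, 0.00579% in proton and 0.0349% in control mt-rich barcodes, against 0.00616%, 0.00135% and 0.00863% in mt-poor barcodes. As a share of mitochondrial UMIs mt-Nd6 did not stand out from mt-poor barcodes. It was 0.318%, 0.0507% and 0.321% in mt-rich and 0.291%, 0.0743% and 0.370% in mt-poor barcodes, and the proton mt-rich value rests on 6 UMIs. In the deeper barcodes it was 0.228% in the photon, 0.0846% in the proton and 0.243% in the control library. Mt-rich barcodes were thus above the deeper ones in the photon and control libraries and below them in the proton library.

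The nuclear RNA of mt-rich barcodes had another make-up. Messengers of cytosolic ribosomal proteins took 3.18% of nuclear UMIs in photon, 7.84% in proton and 2.69% in control mt-rich barcodes, against 17.4%, 17.7% and 17.2% in mt-poor barcodes. Malat1 took 9.38%, 3.07% and 10.4%, against 3.33%, 2.19% and 4.40%. Genes that span more than 100 kb of the genome took 30.2%, 31.5% and 30.1%, against 13%, 20% and 13.9%, and genes that span less than 10 kb took 13.6%, 20.5% and 12.2%, against 44.0%, 39.1% and 41%. Each of these sums differed in the same direction in all 3 libraries, and across libraries the classes overlapped for Malat1 but not for the other sums. At the level of single barcodes, 15 of 839 photon (1.79%), 22 of 125 proton (17.6%) and 5 of 2573 control mt-rich barcodes (0.194%) had a ribosomal protein share of 10% or more. Among mt-poor barcodes this held for 89.7% in the photon, 76.3% in the proton and 74.9% in the control library. The proton mt-rich barcodes were thus the most mixed.

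In molecules per barcode, mt-rich barcodes fell short most in ribosomal protein messengers. They held a mean of 21.8, 57.6 and 20.7 ribosomal protein UMIs in the photon, proton and control libraries, against 653, 664 and 621 in deeper barcodes. The mean number of Malat1 UMIs was 64.4, 22.5 and 80.3, against 72.4, 44.7 and 115.8, and the mean number of UMIs from genes over 100 kb was 207, 231 and 232, against 347, 501 and 434. Ribosomal protein messengers were more than 10-fold lower per barcode, whereas Malat1 and long genes were lower by less than 2.5-fold.

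This make-up changed across the 4% limit but showed no step at 8% or at 1500 UMIs. At a mitochondrial share of 4% to 6%, ribosomal protein messengers took 7.18%, 8.08% and 4.5% of nuclear UMIs in the photon, proton and control libraries, against 17.0%, 14.0% and 15.9% at 2% to 4%. Genes over 100 kb took 25.5%, 30.3% and 28% at 4% to 6%, against 13.5%, 24.3% and 15.5% at 2% to 4%. Barcodes just inside the limit, at 8% to 8.5% (410 barcodes), had 3.16% ribosomal protein, 9.86% Malat1 and 30.2% long-gene UMIs, and those just outside, at 7.5% to 8% (351 barcodes), had 3.22%, 9.96% and 30.4%. The 83 mt-rich barcodes with 1400 UMIs or more had 2.37% ribosomal protein UMIs, and the 68 barcodes just past the depth limit, within 100 UMIs of it, had 3.12%. The 293 deeper barcodes with at least 8% mitochondrial UMIs had 3.51% ribosomal protein UMIs in the photon, 6.87% in the proton and 2.46% in the control library. Depth within the mt-poor class mattered too. At 500 to 749 UMIs, ribosomal protein messengers took 3.37%, 5.66% and 2.98% of nuclear UMIs in photon, proton and control mt-rich barcodes, and 8.76%, 11.0% and 9.92% in mt-poor barcodes.

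**Figure D2:**
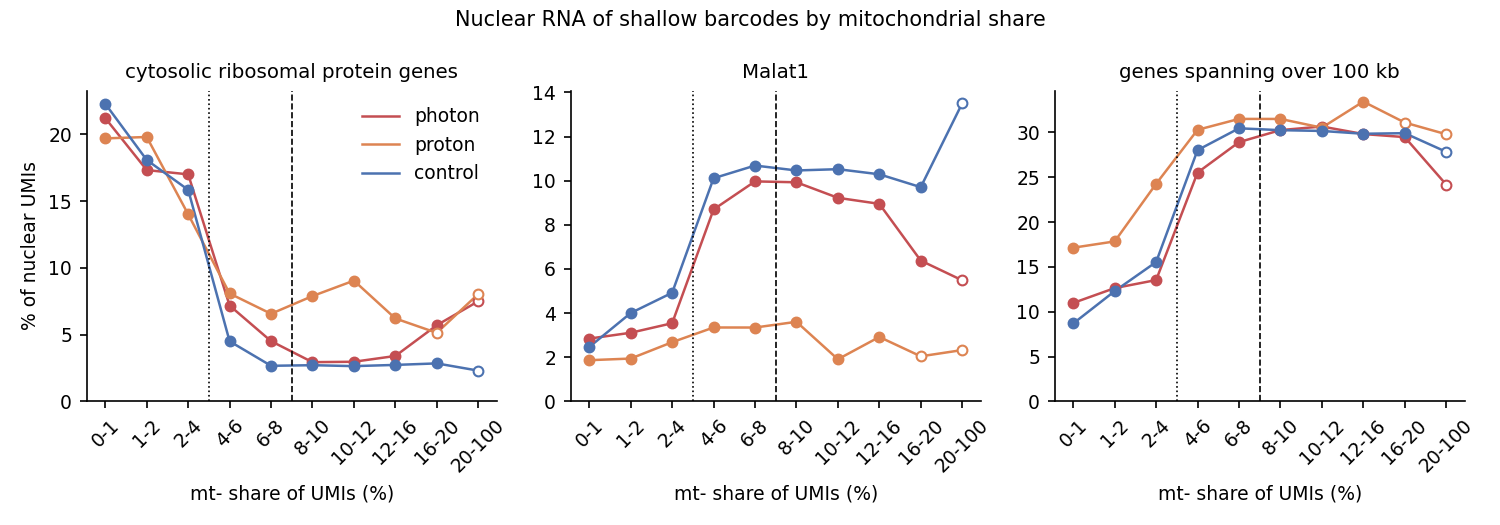
Share of nuclear UMIs (vertical axes, %) from cytosolic ribosomal protein genes, Malat1 and genes spanning over 100 kb, in shallow barcodes binned by mitochondrial share (horizontal axis, %), with 1 line per library. Dotted and dashed lines mark 4% and 8%, open points are bins with fewer than 20 barcodes, and from 8% to 16% the photon and control ribosomal protein shares stay between 2.64% and 3.4%.

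Nuclear genes were tested between the classes on UMIs summed per class and library, with the library as a term, so that the test asks for differences shared by the 3 libraries. These class differences are between 3 libraries of different treatment from the same animals, not between independent cultures. Each gene's own spread over the libraries had 2 residual degrees of freedom, and the fit borrowed a median of 32.3 more from all genes. The p-values thus rest mostly on a spread shared across genes, and small ones do not show that 3 libraries agreed closely. Of 9139 genes tested, edgeR's quasi-likelihood test called 3617 (39.6%) at an adjusted p under 0.05, of which 1451 were higher (15.9%) and 2166 lower (23.7%) in mt-rich barcodes. The split depended on scaling: with library sizes not corrected by trimmed means, which moves the median of all genes by 0.40 on the log2 scale, 3032 were higher and 1596 lower. Without the photon library 48 were higher and 892 lower, without the proton library 2221 and 2363, and without the control library 539 and 1489. With nuclear UMI counts of the classes matched, 283 of 3552 tested genes were higher and 723 lower. No called gene was called in the opposite direction in any of these fits. Log2 fold changes below are mt-rich over mt-poor from the fit with the correction, and levels are CPM, UMIs per 1000000 nuclear UMIs, without it.

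The genes that were higher were long and those that were lower were short. The median genomic span was 91.7 kb for higher, 9.14 kb for lower and 33.5 kb for uncalled genes, and the Spearman correlation across genes between fold change and span was 0.63. Among genes under 5 kb, 75% were lower and 1.69% higher, and the median log2 fold change was -1.93. Among genes of 200 to 500 kb, 53.1% were higher and 0.454% lower, and the median was 0.74. Without the scaling correction the corresponding medians were -1.52 and 1.13, and with matched nuclear UMI counts they were -2.07 and 0.63. Genes share barcodes and libraries, so these are descriptions across genes.

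**Figure D3:**
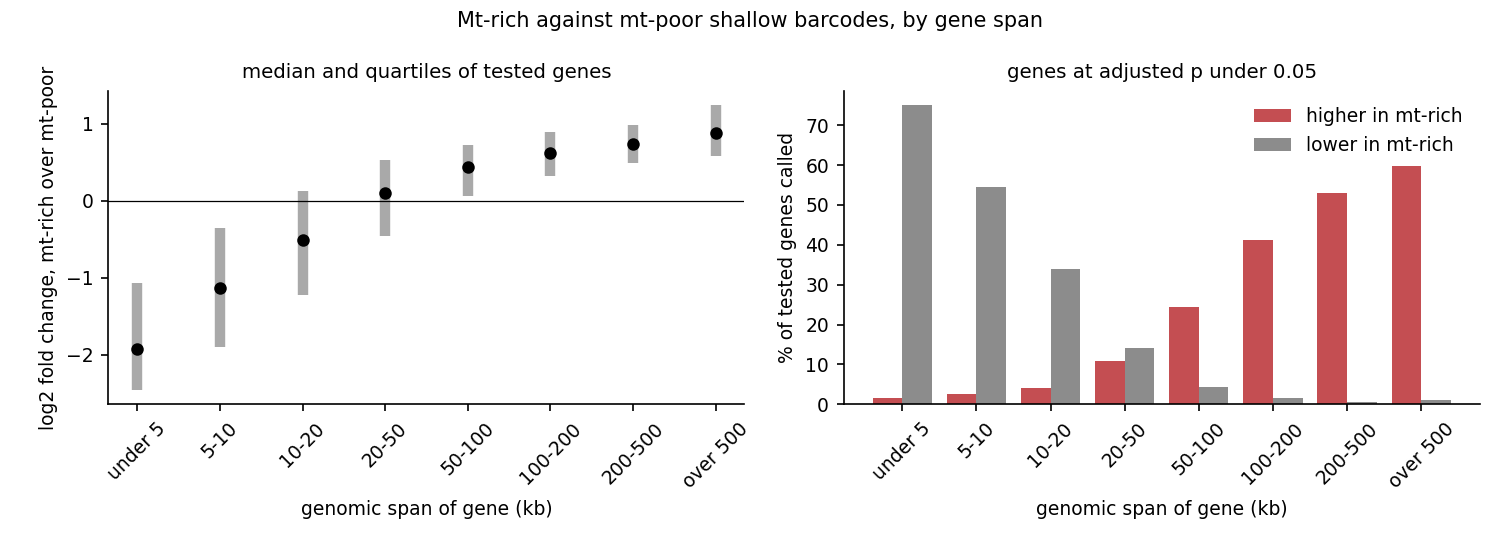
Left, median log2 fold change (mt-rich over mt-poor; points) and quartiles (bars) of tested nuclear genes by genomic span in kb; right, percentage of genes of each span called higher or lower by edgeR. The median passes from -1.93 under 5 kb to 0.88 over 500 kb.

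The 12 called genes with the highest fold changes spanned 7.6 to 774.9 kb. Diaph3, a formin that assembles actin filaments and spans 485.9 kb of chromosome 14 (86655367 to 87141235, mm10), had 196 CPM in photon, 338 in proton and 48.0 in control mt-rich barcodes, against 15.1, 25.2 and 27.9 CPM in mt-poor barcodes. The genes of this set were chosen for the same direction in all 3 libraries, and the classes did not overlap for Diaph3 (log2 fold change 3.05, SE 0.33, adjusted p 8.44e-09, edgeR). Rad51b, a recombination protein, had 123, 349 and 57.6 CPM against 15.1, 47.3 and 27.9 CPM in mt-poor barcodes (log2 fold change 2.35, SE 0.30). Hells, a chromatin remodeller of replicating cells, had 72.9, 163 and 30.3 CPM, against 9.58, 19.0 and 14.0 CPM (log2 fold change 2.46, SE 0.37). Mms22l, which acts at stalled replication forks, had a log2 fold change of 2.36. Diaph3, Rad51b and Hells were each called whichever library was left out. Others of the 12 highest were Sorbs2, a cytoskeletal adaptor (log2 fold change 2.49), Nav3, a microtubule-binding protein over 774.9 kb (1.78), the protease Tmprss2 (1.89), Taco1, a translational activator of mt-Co1 (2.49), and 4 noncoding loci, Gm48678, 1500015L24Rik, 5330438D12Rik and Morrbid, at 1.78 to 2.5.

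The 12 called genes with the lowest fold changes spanned 1.6 to 10.6 kb. Wfdc18, a small secreted whey acidic protein domain gene on chromosome 11 (83709015 to 83711348, mm10), had 184 CPM in photon, 120 in proton and 54.6 in control mt-rich barcodes, against 1592, 817 and 1033 CPM in mt-poor barcodes (log2 fold change -3.85, SE 0.38, adjusted p 2.05e-09, edgeR). Ly6d, a surface protein of squamous epithelium, had 436, 196 and 591 CPM, against 4351, 2368 and 3135 CPM (log2 fold change -3.43, SE 0.47). Other secreted products were the protease inhibitor Cst3 (log2 fold change -3.54), Orm1 (-3.62) and Orm3 (-3.51), the last 2 close paralogs whose reads could be split between them. Map1lc3a, an autophagosome protein (-3.33), Rab25 (-3.33), Fxyd2 (-3.31), Vps28 (-3.29), the small chaperone Cryab (-3.23), Cox14 (-3.20) and Urah (-3.39) completed the set. The classes did not overlap for Wfdc18 or Ly6d.

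Of 10 tested nuclear-retained RNAs, 7 were called higher (70%, against 15.9% of all genes). None was called lower, against 23.7% of all genes. Their median log2 fold change was 0.95, against 0.05 for all genes. Malat1 had 93819 CPM in photon, 30688 in proton and 104368 in control mt-rich barcodes, against 33303, 21900 and 43970 CPM in mt-poor barcodes. It was higher in 3 of 3 libraries, by 2.82-fold, 1.40-fold and 2.37-fold, but missed the threshold (log2 fold change 0.71, SE 1.12, adjusted p 0.640, edgeR). Malat1 passed it without the proton library (log2 fold change 0.99, adjusted p 8.77e-10). Neat1, the scaffold of paraspeckles, had 2197, 1939 and 3027 CPM, against 794, 1754 and 1730 CPM, and was not called either (0.44, SE 0.41). Xist, which coats the inactive X chromosome, had 2096, 2168 and 2226 CPM, against 617, 1330 and 814 CPM (0.94, SE 0.38, adjusted p 0.0486). Airn, an imprinting transcript, was also higher (1.01, SE 0.25). Without the photon library none of the 10 was called, without the proton library 9 were and without the control library 4. The sources used here do not say whether counting used strand, so reads of Airn and Gm48678 cannot be told apart from those of the genes they overlap. The 3 loci that take up ribosomal RNA sequence, Gm42418, AY036118 and Lars2, were not called (log2 fold changes -0.08, 0.33 and 0.17).

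Messengers of the cytoplasmic translation machinery were lower. Of 83 tested cytosolic ribosomal protein genes, 82 were called lower (98.8%, against 23.7% of all genes) and none higher (median log2 fold change -2.5). The exception was Rpl10 (0.54, adjusted p 0.431, edgeR), named after its value was seen. Rpl13 had 931 CPM in photon, 2636 in proton and 782 in control mt-rich barcodes, against 5515, 5577 and 5642 CPM in mt-poor barcodes (-2.56, SE 0.55), and the classes did not overlap. Many of these genes have processed pseudogenes, which can take part of their reads. Without the photon library 54 were called lower, and without the control library 52. All 22 abundant cytosolic messengers tested were lower (100%, against 23.7% of all genes, median -2.07), and 12 of them were called without the photon library or without the control library. Neither they nor the ribosomal protein genes were set against genes of like span, and of all tested genes under 5 kb 75% were lower. Fth1, the ferritin heavy chain, had 1545, 2538 and 2058 CPM, against 13153, 13273 and 14652 CPM (-3.14, SE 0.68), but was not called without the photon library (adjusted p 0.207, edgeR) or without the control library (adjusted p 0.247).

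The nuclear-encoded partners of the mitochondrial messengers did not share their excess. All 42 tested nuclear genes for respiratory chain subunits were called lower (100%, against 23.7% of all genes, median log2 fold change -2.37). Without the photon library or without the control library 41 of 42 were. Uqcrh, of complex III, had 132 CPM in photon, 142 in proton and 139 in control mt-rich barcodes, against 797, 590 and 995 CPM in mt-poor barcodes (-2.95, SE 0.32, adjusted p 1.02e-08, edgeR). Of 77 mitochondrial ribosomal protein genes, 62 were lower (80.5%, against 23.7% of all genes) and none higher (median -1.70), and without the photon library 35 were lower. Neither list was set against genes of like span. Among 22 genes of mitophagy and mitochondrial dynamics, 11 were lower (50%, against 23.7% of all genes) and 2 higher (9.09%, against 15.9%). Of the 5 members under 10 kb 4 were lower, and of the 17 longer ones 7 were lower and 2 higher. The higher ones were Ppargc1a, a coactivator of mitochondrial biogenesis over 113.5 kb (1.07, SE 0.28), and Dnm1l, the fission dynamin (0.87, SE 0.24). Ppargc1a had 832, 218 and 371 CPM, against 210, 162 and 121 CPM. None of the 22 was called higher without the photon library or without the control library.

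Of 21 AP-1 and immediate early genes, 10 were lower and 2 higher (median log2 fold change -0.73), and without the photon library 1 was lower and none higher. These are 47.6% lower and 9.52% higher, against 23.7% and 15.9% of all genes. Of the 16 members under 10 kb 9 were lower and 2 higher, and of all tested genes that short 63.9% were lower and 2.21% higher. Jun had 887 CPM in photon, 109 in proton and 1028 in control mt-rich barcodes, against 1093, 245 and 1000 CPM in mt-poor barcodes (-0.73, SE 0.34, adjusted p 0.0816, edgeR), so the libraries differed more than the classes. Fos had 142, 87.1 and 73.3 CPM, against 270, 90.2 and 223 CPM (-1.46, SE 0.27), and Atf3 had 406, 163 and 302 CPM, against 340, 135 and 274 CPM (-0.16, SE 0.25, not called). The 2 that were higher were Fosb (1.28, SE 0.26) and Fosl1 (1.28, SE 0.47).

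Of 13 heat shock chaperones, 8 were lower and none higher (median log2 fold change -0.78), with 2 lower without the photon library and 4 without the control library. The lower share was 61.5%, against 23.7% of all genes. Under 10 kb 6 of 7 members were lower, against 63.9% of all genes that short, and of the 6 longer members 2 were lower, against 13.8%. Hspb1, a small heat shock protein, had 179 CPM in photon, 196 in proton and 278 in control mt-rich barcodes, against 1552, 848 and 1963 CPM in mt-poor barcodes (-3.13, SE 0.38). Hsp90ab1 had 707, 588 and 596 CPM, against 3231, 1024 and 3019 CPM (-2.20, SE 0.44). Hspa1a, the inducible heat shock protein, fell under the filter on low counts. Of 21 oxidative stress genes 14 were lower (66.7%) and 2 higher (median -1.59). Under 10 kb 9 of 10 members were lower, and of the 11 longer members 5 were lower and 2 higher. The higher ones were Nqo1 (0.95, SE 0.34) and Gclc, which starts glutathione synthesis. Gclc had 2381, 1819 and 1708 CPM, against 912, 729 and 781 CPM (0.91, SE 0.36, adjusted p 0.0447, edgeR), but was not called without the photon or without the control library.

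Of 19 p53 targets, 5 were lower (26.3%, against 23.7% of all genes) and 2 higher (median log2 fold change -0.00, against 0.05 for all genes), and without the scaling correction 5 were lower and 6 higher. Cdkn1a, the cell cycle inhibitor, had 99.0 CPM in photon, 65.4 in proton and 29.8 in control mt-rich barcodes, against 329, 158 and 88.4 CPM in mt-poor barcodes (-2.0, SE 0.27). The higher ones were Eda2r (0.82, SE 0.25) and Pmaip1 (0.98, SE 0.37). Of 18 ATF4 and mitochondrial stress targets, 5 were lower (27.8%, near the 23.7% of all genes) and none higher (median -0.42). None was called without the photon library. Their summed level was higher, at 3957, 1906 and 4890 CPM, against 2689, 1782 and 3093 CPM. Slc7a11 and Nupr1 made up most of that sum and neither was called. Of 23 apoptosis regulators 6 were lower (26.1%, near the 23.7% of all genes), among them Bax (-2.24, SE 0.26), and Bcl2 was higher (0.99, SE 0.33). With uncorrected library sizes 4 were lower and 7 higher, and the median of the 23 was 0.21 with the correction.

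Cell cycle genes were sparse, and their sums differed in direction between libraries. G2 and M phase genes summed to 637 CPM in photon, 817 in proton and 201 in control mt-rich barcodes, against 316, 241 and 354 CPM in mt-poor barcodes. S phase genes summed to 585, 675 and 340 CPM, against 310, 264 and 484 CPM. Both sums were thus higher in mt-rich barcodes of the photon and proton libraries and lower in those of the control library. Of 9 tested G2 and M phase genes, Mki67 (log2 fold change 2.84, SE 0.41) and Tacc3 (1.33, SE 0.51) were higher and Hmgb2 lower (-0.93, SE 0.25), against 15.9% higher and 23.7% lower over all genes. With uncorrected library sizes 4 of the 9 were higher and none lower. Mki67 was called whichever library was left out. Tacc3 was not called without the photon library (adjusted p 0.823, edgeR) or without the proton library (0.0688), and Hmgb2 was not called without the photon library (0.326) or without the control library (0.136). Mki67 had 72.9 CPM in photon, 120 in proton and 12.6 in control mt-rich barcodes, against 8.21, 12.6 and 0 CPM in mt-poor barcodes. The control mt-poor barcodes had no Mki67 UMI, which allows up to 14.0 CPM there. Of 11 S phase genes 2 were higher, Hells and Mcm6 (1.29, SE 0.39), and Dut was lower (-1.09, SE 0.35). These are 18.2% higher and 9.09% lower, against 15.9% and 23.7% over all genes. With uncorrected library sizes 3 of the 11 were higher and none lower. Dut was not called without the photon library (adjusted p 0.273, edgeR) or without the control library (0.470).

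Keratins of the basal and luminal layers were lower, as were 23.7% of all tested genes. Keratins were not set against genes of like span. Of all tested genes under 5 kb 75% were lower (median log2 fold change -1.93), and of those of 5 to 10 kb 54.5% were (-1.14). All 4 basal keratins were called lower (median log2 fold change -1.57), and 2 were without the photon library or without the control library. Krt5 had 262 CPM in photon, 392 in proton and 228 in control mt-rich barcodes, against 721, 592 and 758 CPM in mt-poor barcodes (-1.68, SE 0.31, adjusted p 4.24e-05, edgeR). Krt14 had 636, 501 and 433 CPM, against 1231, 565 and 1442 CPM (-1.37, SE 0.35), and Krt17 was lower by 1.72 on the log2 scale. Krt5 was called whichever library was left out, whereas Krt14 was not called without the photon or the control library. All 4 luminal keratins were lower (median -1.10), but with uncorrected library sizes only Krt7 was (-1.32 with the correction). Krt8 had 252, 218 and 110 CPM, against 263, 222 and 209 CPM (-0.72, SE 0.25), so its classes were close in the photon and proton libraries. Krt18 had 728, 381 and 315 CPM, against 876, 500 and 856 CPM (-1.08, SE 0.32). None of the 4 luminal keratins was called without the photon library or without the control library. Of 5 squamous keratins Krt13 and Krt23 were lower and none was higher, and none was called without the photon library. With each barcode thinned to 300 nuclear UMIs, a Krt5 UMI was found in 7.39% of photon, 8.06% of proton and 6.30% of control mt-rich barcodes, against 16.9%, 15.9% and 15.9% of mt-poor barcodes.

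Both classes carried duct epithelial markers. Luminal duct markers summed to 3436 CPM in photon, 4085 in proton and 2428 in control mt-rich barcodes, against 9169, 7296 and 7898 CPM in mt-poor barcodes. Of 10 tested, 9 were lower (90%, against 23.7% of all genes). With uncorrected library sizes 5 of them were, without the control library 2, and without the photon library none. Basal duct markers summed to 3478, 3333 and 3506 CPM, against 5143, 3551 and 5782 CPM. Of 10 tested, 4 were lower (40%, against 23.7% of all genes) and none higher (3 higher under uncorrected library sizes). Without the photon or without the control library 2 were lower. The 4 that were lower were the basal keratins described above. Of the 10 markers, 5 had higher CPM in mt-rich barcodes of all 3 libraries, Itga6 among them. Markers of fibroblasts, endothelium, blood, neural cells and immune cells were at or near 0, with summed levels of at most 10.9 CPM in any library's mt-rich barcodes. In mt-poor barcodes, immune markers reached 46.5 CPM in the control library. Secretory and duct products were lower in 13 of 16 tested (81.25%, against 23.7% of all genes, median -2.0), and in 8 without the photon library. Lcn2, a lipocalin that binds iron carriers, was among them, with 335, 479 and 448 CPM, against 2203, 1974 and 2405 CPM (-2.78, SE 0.40). Of 14 chaperones of the endoplasmic reticulum 13 were lower (92.9%, against 23.7% of all genes). Under uncorrected library sizes 8 were lower, without the photon library 3 and without the control library 5. The lists of this paragraph were not set against genes of like span, and of all tested genes under 10 kb 63.9% were lower.

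**Figure D4:**
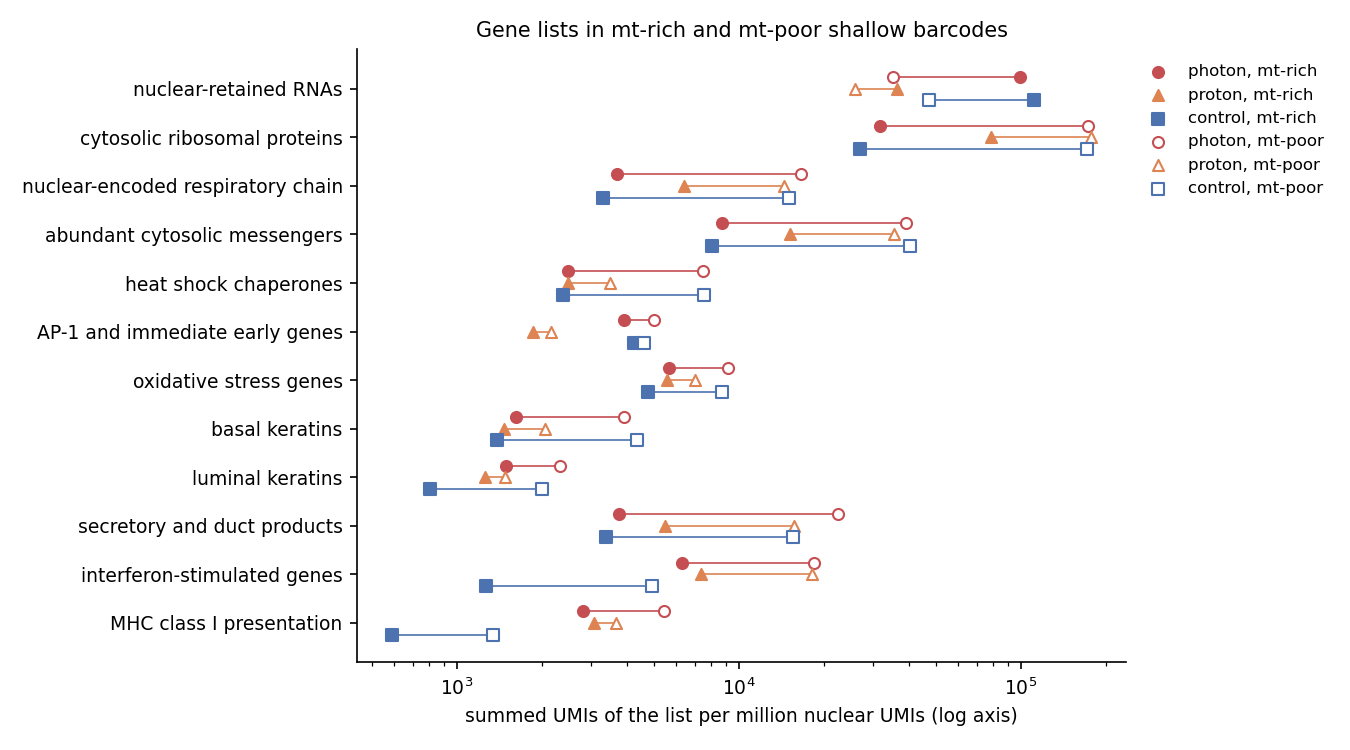
Summed level of 12 gene lists in CPM of nuclear UMIs (log axis), filled symbols for mt-rich and open symbols for mt-poor shallow barcodes, joined within each library. Mt-rich barcodes lie to the right for nuclear-retained RNAs and to the left for each other list, and proton pairs are the closest together for ribosomal protein, keratin and heat shock lists.

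The interferon-stimulated genes that were lower in mt-rich barcodes were mostly short. Of 38 tested, 15 were lower and 3 higher (median log2 fold change -0.75), and without the photon library 4 were lower and none higher. Isg15, a ubiquitin-like modifier of 1.4 kb, had 231 CPM in photon, 207 in proton and 9.60 in control mt-rich barcodes, against 921, 581 and 18.6 CPM in mt-poor barcodes (-2.07, SE 0.33, adjusted p 6.48e-06, edgeR). Ifi27l2a had 698, 1362 and 25.8 CPM, against 4259, 6127 and 219 CPM (-2.96, SE 0.48), and Ifitm3, a membrane restriction factor, had 1386, 2146 and 658 CPM, against 8250, 6742 and 4014 CPM (-2.66, SE 0.55). The 3 that were higher were the transcription factor Stat2 over 22.3 kb (0.80, SE 0.26), the helicase Ddx60 over 110.2 kb (0.79, SE 0.27) and Parp14 over 38.7 kb (0.64, SE 0.26). None of the 3 was called without the photon library or without the control library. Of the 13 tested genes under 10 kb, 11 were lower and none higher, and of all tested genes under 10 kb 63.9% were lower and 2.21% higher. Of the 25 at or above 10 kb, 4 were lower, 3 higher and 18 uncalled, and of all tested genes of that span 13.8% were lower and 19.2% higher. Short members summed to 3117 CPM in photon, 4869 in proton and 840 in control mt-rich barcodes, against 15963, 15614 and 4633 CPM in mt-poor barcodes. Long members summed to 3124, 2462 and 435 CPM, against 2453, 2566 and 293 CPM, so their totals were near or above those of mt-poor barcodes. The median fold change of the long members was -0.52 with the scaling correction and -0.11 without it, opposite in sign to the summed ratio in the photon and control libraries.

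**Figure D5:**
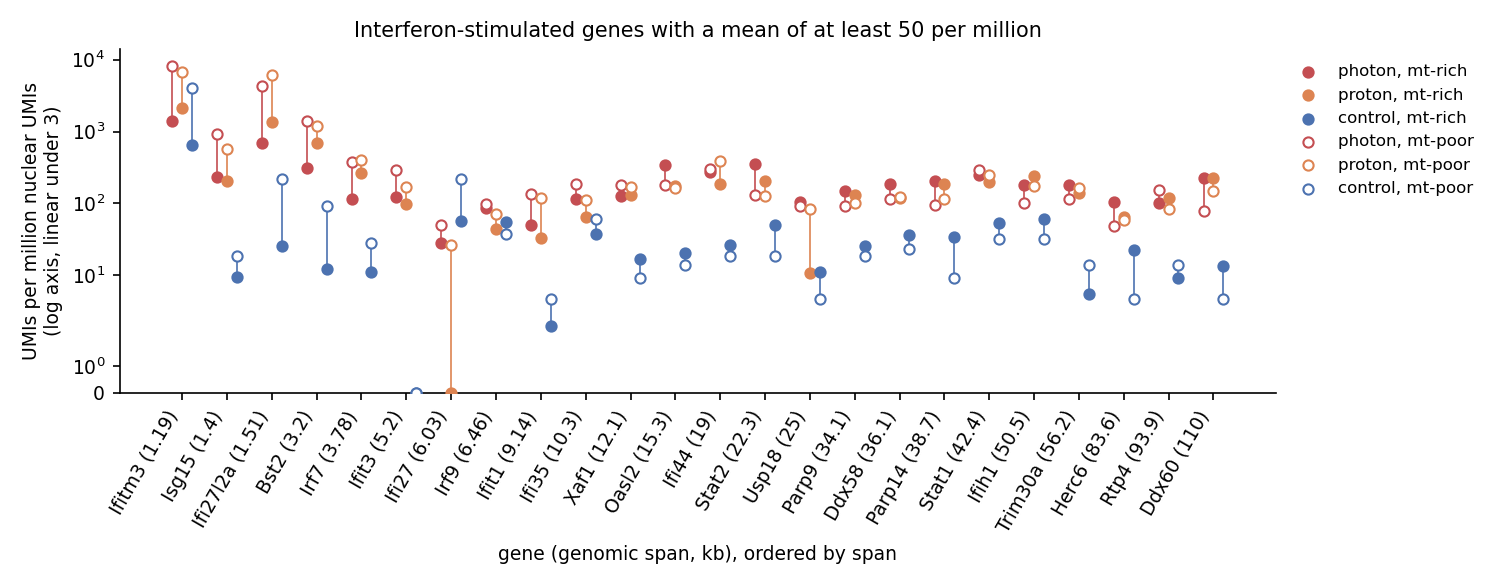
Interferon-stimulated genes with a mean of at least 50 CPM, ordered by genomic span (kb in brackets), filled points for mt-rich and open points for mt-poor barcodes of each library (vertical axis logarithmic, linear under 3). Short genes such as Ifitm3 and Isg15 lie lower in mt-rich barcodes. Stat2 and Ddx60 lie higher, and are 2 of the 3 called higher among the 25 tested members of 10 kb or more. Of those 25, 4 were called lower and 18 were uncalled.

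Of 17 MHC class I genes, 10 were lower (58.8%, against 23.7% of all genes) and 1 higher (median log2 fold change -1.20). All 10 were among the 14 members under 10 kb, and of all tested genes that short 63.9% were lower. The 3 longer members were uncalled. B2m, the light chain shared by class I molecules, had 445 CPM in photon, 850 in proton and 51.5 in control mt-rich barcodes, against 1462, 1118 and 200 CPM in mt-poor barcodes (-1.71, SE 0.36, adjusted p 0.000231, edgeR). The gene that was higher, H2-Q6 (1.08, SE 0.41), belongs to a family of near-identical genes whose reads could be split. B2m was not called without the photon or without the control library, and of the 17 genes 2 were lower without the photon library and 5 without the control library.

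Within mt-rich barcodes, the irradiated libraries were compared with the control library by size alone, on genes with a mean of at least 100 CPM. Of 2289 genes in the photon comparison 56 differed by at least 2-fold (2.45%), 48 higher (2.1%) and 8 lower (0.349%). Of 2292 in the proton comparison 417 did (18.2%), 266 higher (11.6%) and 151 lower (6.59%). Both comparisons share the control library. In mt-poor barcodes, photon over control gave 31 higher (1.63%) and 12 lower (0.631%) of 1902 genes, 43 in all (2.26%), and proton over control gave 140 higher (7.09%) and 169 lower (8.55%) of 1976, 309 in all (15.6%). The 125 proton barcodes held 91796 nuclear UMIs, so 1 UMI there is worth more than 10 CPM and the proton counts carry the widest counting error.

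Interferon-stimulated genes were higher in irradiated than in control mt-rich barcodes. Their summed level was 6293 CPM in photon mt-rich barcodes, 4.94-fold that of control (counting interval 4.69 to 5.20), and 7364 CPM in proton ones, 5.78-fold (5.30 to 6.29), against 1275 CPM in control. In mt-poor barcodes the sums were 3.74-fold (photon) and 3.69-fold (proton) those of control. Medians over members with a mean of at least 100 CPM ran the other way. Their median log2 ratio was 3.10 in photon (12 members) and 2.82 in proton mt-rich barcodes (11 members). In mt-poor barcodes it was 3.83 (10 members) and 3.67 (9 members). That filter uses the mean of both libraries, so a member can pass it through its irradiated level alone. With no filter on level, 40 of the 41 list members were higher in photon than in control mt-rich barcodes and 1 was lower. In proton mt-rich barcodes 32 were higher and 5 lower, and 4 had no UMI in either library. The share of all genes higher without that filter was not counted. With a mean of at least 100 CPM, 12 of 12 members were at least 2-fold higher in photon mt-rich barcodes, against 2.1% of all genes. In proton mt-rich barcodes 11 of 11 were, against 11.6% of all genes. Over all genes with a mean of at least 100 CPM, the median log2 ratio was -0.02 in photon and 0.07 in proton mt-rich barcodes. The genes with the highest ratios on the same side in both irradiated libraries included list members. Isg15 was 24.1-fold higher in photon (14.8 to 41.2) and 21.6-fold in proton mt-rich barcodes (10.8 to 43.0). Bst2, which tethers virus particles to membranes, was 25.5-fold and 57.5-fold higher, and Ifi27l2a was 27.1-fold and 52.8-fold higher. Among longer members, Ddx60 was 16.7-fold and 16.8-fold higher, and Parp14 was 6.15-fold and 5.47-fold higher. Rnf213, a large ubiquitin ligase outside the list, had 613 CPM in photon and 621 CPM in proton, against 61.7 CPM in control mt-rich barcodes. B2m was 8.62-fold and 16.5-fold higher, and Ifi44 10.5-fold and 7.05-fold.

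Ribosomal protein messengers and ribosomal RNA-linked loci stood higher in proton mt-rich barcodes. Ribosomal protein messengers summed to 31757 CPM in photon and 78435 CPM in proton, against 26929 CPM in control mt-rich barcodes, which is 1.18-fold and 2.91-fold. With no filter on level, 73 of 86 ribosomal protein genes were higher in photon and 78 in proton than in control mt-rich barcodes. The share of all genes was not counted that way. With a mean of at least 100 CPM, 0 of 72 were at least 2-fold higher in photon, against 2.1% of all genes. In proton 63 of 75 were, against 11.6% of all genes. In mt-poor barcodes the sums were 1.01-fold and 1.03-fold those of control. Malat1 was 0.90-fold in photon and 0.29-fold in proton mt-rich barcodes. Gm42418, a ribosomal RNA-linked locus, had 7486 CPM in photon and 21973 CPM in proton, against 6370 CPM in control mt-rich barcodes, and Lars2 was 1.61-fold and 7.34-fold higher. That proton mt-rich barcodes also included the most barcodes with a ribosomal protein share of 10% or more, 22 of 125, moves with these values, and its part in them was not tested.

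The lowest genes in both irradiated libraries were led by Errfi1, a feedback inhibitor of the EGF receptor, with 662 CPM in photon and 120 CPM in proton, against 1421 CPM in control mt-rich barcodes (0.47-fold, 0.417 to 0.518, and 0.08-fold, 0.042 to 0.151). Jun was 0.86-fold and 0.11-fold. Nt5e was 0.61-fold in photon mt-rich barcodes, and in proton ones it had 2 UMIs, a ratio of 0.08 (0.009 to 0.279). Cfl2, Dlgap1, Gm16093, Gm35188 and Gm49708, the remaining genes of that rule, had 2 to 4 UMIs each in the proton library and photon ratios of 0.52 to 0.66. The summed level of p53 targets was 1.29-fold that of control in photon mt-rich barcodes (1.22 to 1.37) and 0.97-fold in proton ones (0.842 to 1.12). Mdm2, the p53 ubiquitin ligase, had 278 CPM in photon and 207 CPM in proton, against 100 CPM in control mt-rich barcodes (2.78-fold, 2.24 to 3.44, and 2.07-fold, 1.22 to 3.32). Cdkn1a was 3.32-fold higher in photon (2.27 to 4.86) and 2.19-fold in proton mt-rich barcodes (0.773 to 5.06). Of the keratins, Krt18 was 2.31-fold in photon (2.03 to 2.62) and 1.21-fold in proton (0.834 to 1.70), and Krt14 was 1.47-fold and 1.16-fold.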

How the data were processed

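The deposited files were 3 gene-by-barcode matrices of UMI counts, which the authors made with Cell Ranger 7.0.1 on mm10, per the submitters' processing notes (the file headers name 7.0.0). The sources used here name neither the annotation release nor whether intronic reads were counted. No doublet caller was run. Members and gene lists were chosen with earlier results of these data known. Gene spans came from GENCODE M21 for 32235 of 32285 gene IDs. Raw counts of nuclear genes were summed per class and library, filtered with filterByExpr and tested with edgeR 4.0.16 (TMM, library term, quasi-likelihood test, Benjamini-Hochberg over all genes), after a test on simulated data. DESeq2 1.42.0 was an alternative. Comparisons between libraries are ratios of CPM with exact conditional Poisson 95% intervals, which cover counting error only. Named genes were the 12 highest and 12 lowest called genes with a mean of at least 50 CPM and the same direction in 3 libraries, up to 4 most abundant members of each list, and a short set of stress, keratin and interferon genes. Within mt-rich barcodes they were the 8 highest and 8 lowest ratios of at least 100 CPM on the same side in photon and proton. Genes called in counts of 5 or fewer were named after their values were seen.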

Additional observations from a re-analysis of the deposited data

Results flagged for a closer look

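For 4 of the named genes, the ratio of mt-rich to mt-poor levels lay on opposite sides of 1 in different libraries, with a counting interval that excludes 1 in at least 1 library on each side. The difference between libraries was not tested, since each treatment has 1 library. Hspa5, the main chaperone of the endoplasmic reticulum, had ratios of 0.684 (photon), 1.55 (proton) and 0.552 (control). Trp53inp1, a p53 target, had ratios of 2.15 (photon), 0.689 (proton) and 2.05 (control). Slc3a2, an amino acid transporter subunit, had ratios of 0.633 (photon), 1.77 (proton) and 0.811 (control). Cenpf, a mitotic kinetochore protein, had ratios of 4.90 (photon), 7.20 (proton) and 0.258 (control). In the first 3 genes the proton library stood apart from the other two, and in Cenpf the control library did.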

How the results depend on the processing

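No paired analysis was possible because each treatment has 1 library; mt-rich and mt-poor barcodes were paired within libraries by the library term. Calls between mt-rich and mt-poor barcodes (3617, 1451 higher, 2166 lower) changed as follows. Uncorrected library sizes gave 3032 higher and all UMIs as library size gave 2400 higher. DESeq2 called 1844 (429 higher, 1415 lower). No filter gave 939 higher, and members of at least 10% mitochondrial share gave 963 higher. Setting members against all other shallow barcodes gave 1419 (273, 1146), matched nuclear UMI counts 1006 (283, 723), fewer than 1000 UMIs in both classes 885 (166, 719), and no library term 2033 (413 higher). Leaving out 1 library gave 940 to 4584 calls, 48 to 2221 higher and 892 to 2363 lower. The cause was not tested.

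Mt-rich shares in photon, proton and control libraries were 8.46%, 2.10% and 23% at 6%, 2.85%, 0.386% and 10.4% at 10%, 4.45%, 0.654% and 13.4% under 1000 UMIs, 28.5%, 3.01% and 68.4% of shallow barcodes, and 2.82%, 0.523% and 13.7% after the filter on genes and mitochondrial share. In photon over control, members of at least 10% gave 15 lower genes against 8.

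Of 1603 values for 117 named genes under these alternatives, 1347 kept direction and call, 191 lost the call, 30 gained it, 35 uncalled ones changed sign, and none reversed a call. Without the photon library 46 of the 117 lost their call, and without the control library 36 did. Depth limits the proton members most, with 125 barcodes.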
